A study of Mus musculus with 4 samples.

Results

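Spleen CD8 T cells with a terminal effector profile were taken as the cells of both spleen libraries that had a value of Cd8a or Cd8b1, a value of Ccl5, and a value of Gzma or Klrg1. This gate held 83 of the 6965 cells of the series, 36 in the CD137 minus spleen library and 47 in the CD137 plus spleen library. They were set beside the other spleen CD8 cells, 2408 in the CD137 minus and 422 in the CD137 plus library, and beside tumour cells with a value of Gzmk or Klrg1, 208 in the CD137 minus and 678 in the CD137 plus library.

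All groups came from lethally irradiated C57BL/6 mice given mixed bone marrow of Cd4cre Cd137fl/fl ROSA26 tomato and Cd137fl/fl ROSA26 tomato donors, then B16K1 melanoma cells under the skin, and all were sampled on day 21. CD137 minus cells descend from the donor with Cre recombinase under the Cd4 promoter, which is active in developing T cells. CD137 plus cells descend from the donor with the same loxP-flanked gene and without Cre. Each of the 4 libraries, 1 per tissue and CD137 fraction, pools cells of 7 mice. Differences between libraries therefore carry no test and no error between animals, and loss of CD137, Cre and donor cannot be told apart. The labels contradict each other on which tomato sign marks the CD137 minus fraction, and the groups follow the CD137 status alone. The labels give neither the age of the mice nor how any remaining recipient T cells were set apart. CD8 T cells were enriched with beads before the sort.

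As background, CD8 T cells that have responded to antigen or cytokines divide into memory precursors, which keep the receptors for lymph node entry and interleukin-7, and terminal effectors, which carry granules and survive poorly. Terminal effectors in mouse spleen bear the inhibitory lectin receptor KLRG1 and the fractalkine receptor CX3CR1, and circulate in blood with the sphingosine receptor S1PR5. The transcription factors T-bet (Tbx21) and ZEB2 drive this state. Ccl5, a chemokine, and Gzma, a granule protease, are stored or made by antigen-experienced cells and by natural killer (NK) cells.

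The rule used Cd8a, Cd8b1, Ccl5, Gzma and Klrg1, so their levels only describe the choice. Ccl5 per gated cell ran from 1 over a median of 134.5 to 279 corrected counts in the CD137 minus library, and from 1 over a median of 180 to 508 in the CD137 plus library. Corrected counts are the whole numbers recovered from the deposited values. Gzma ran from 0 over a median of 6.5 to 95 in CD137 minus and from 0 over a median of 9 to 84 in CD137 plus gated cells. Gzma without Klrg1 was present in 16 CD137 minus and 20 CD137 plus cells, Klrg1 without Gzma in 5 and 3, and both in 15 and 24.

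At the border of the rule, 7 CD137 minus and 5 CD137 plus cells entered on a single count of Gzma or Klrg1. Just outside lay 1134 and 277 CD8 cells with Ccl5 and neither of the other genes, and 12 and 5 CD8 cells with Gzma or Klrg1 and no Ccl5. Among CD8 cells without Ccl5, Gzma had a value in 11 of 1274 CD137 minus cells, 0.863%, and in 5 of 145 CD137 plus cells, 3.45%, at median totals of 3881.5 and 5477 counts. These shares give the background of Gzma counts in cells of other states. Ccl5 was below 10 counts in 4 gated cells of each library, and none of these 8 cells had a value of S1pr5, Cx3cr1 or Zeb2.

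S1pr5, Cx3cr1 and Zeb2 were not part of the rule. They were chosen as markers with earlier results of these data known, so they describe the gate and are no independent check of its label. At least 1 of them had a value in 27 of 36 CD137 minus and 37 of 47 CD137 plus gated cells. In other CD8 cells this was so for 46 of 2408 CD137 minus and 25 of 422 CD137 plus cells, shares of 1.91% and 5.92%. Among those other cells with at least 10 Ccl5 counts it was so for 34 of 425 and 20 of 138. Their shares were higher, at 8.00% in CD137 minus and 14.5% in CD137 plus. In CD8 cells without Ccl5, which give the background of these counts, it was so for 6 of 1274 and 1 of 145, shares of 0.471% and 0.690%. All 3 were found together in 5 CD137 minus and 10 CD137 plus gated cells, and none of the 3 in 9 and 10. Cells with both Gzma and Klrg1 carried at least 1 of them most often, in 14 of 15 and 22 of 24 cells. Cells with Gzma alone did so in 9 of 16 and 13 of 20. The gate thus held a larger portion in which the markers were seen and a remainder of 19 cells without a count of any of the 3. Counts of S1pr5, Cx3cr1 and Zeb2 were few, at 37, 42 and 17 over the 36 CD137 minus gated cells. Over the 47 CD137 plus gated cells they were 38, 68 and 51. A value of 0 in a cell therefore does not show that the transcript was absent, and whether the remainder is a separate state was not tested.

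**Figure D1:**
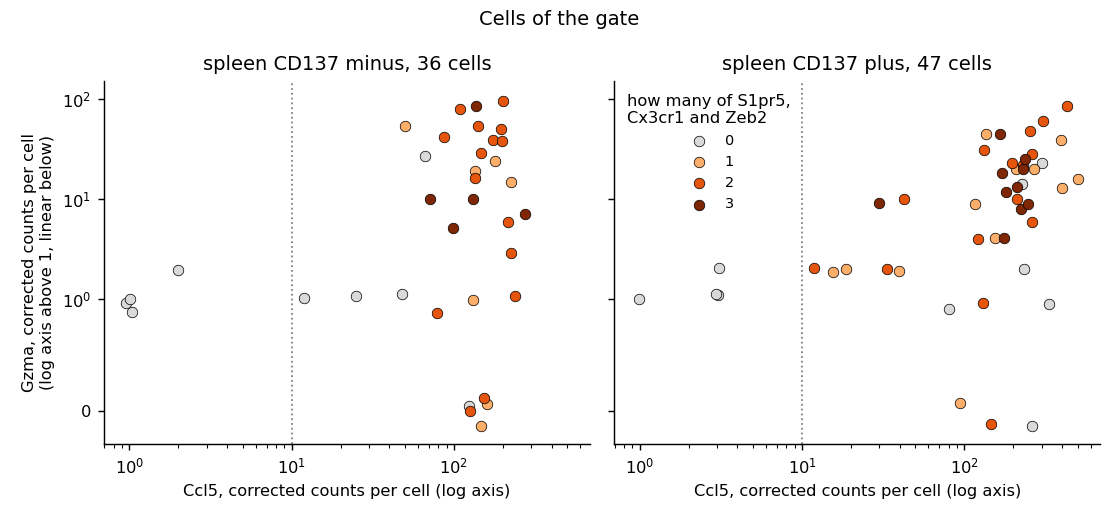
Each point is a gated cell, plotted by its Ccl5 (horizontal, log axis) and Gzma (vertical, log axis above 1) corrected counts, with a small random shift so that equal values can be seen, for the CD137 minus library (left) and the CD137 plus library (right). Colour gives how many of S1pr5, Cx3cr1 and Zeb2 had a value; the 8 cells left of the dotted line at 10 Ccl5 counts have none.

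Other genes were also seen in only part of the gated cells. Gzmk, a granzyme of memory and effector memory cells, shared a cell with Cx3cr1 in 13 CD137 minus and 15 CD137 plus cells. Cx3cr1 was found without Gzmk in 8 and 11 cells, Gzmk without Cx3cr1 in 2 and 6, and neither in 13 and 15. Cx3cr1 thus had a value in 13 of 15 CD137 minus and 15 of 21 CD137 plus gated cells with Gzmk. Among all gated cells it had a value in 21 of 36 and 26 of 47. With few counts per cell, cells with 1 of the 2 genes need not be separate subsets, which was not tested. Receptor beta chains were diverse: 15 of the 22 Trbv segments in the table were seen in CD137 minus and 17 in CD137 plus gated cells. Trbv13-2 was the most frequent in CD137 minus gated cells, in 7 of 36, and Trbv12-2 and Trbv19 in CD137 plus gated cells, in 6 of 47 each. Trbv13-2 had a value in 7 of 36 CD137 minus and 5 of 47 CD137 plus gated cells, against 482 of 2408 and 82 of 422 other CD8 cells. Trbv19 had a value in 13.9% of CD137 minus and 12.8% of CD137 plus gated cells, against 6.94% and 38 of 422 of other CD8 cells and 4.33% and 9.44% of the tumour cells.

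The gate made up 1.46% of CD137 minus spleen cells (exact Clopper-Pearson 95% interval 1.03 to 2.02) and 9.94% of CD137 plus spleen cells (7.39 to 12.99). Among CD8 cells with at least 10 Ccl5 counts the shares were 7.00% (4.84 to 9.74) and 23.8% (17.8 to 30.6). These intervals and all others in the text cover counting error only and not the spread between mice. Those of levels and ratios treat the summed corrected counts as independent counts, so they leave out the spread between cells too. After every cell was thinned to 2900 counts and gated again, the shares were 1.38% in CD137 minus and 9.30% in CD137 plus. Cells with both Gzma and Klrg1 made up 0.609% and 5.07%.

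A level in CPM is the sum of a gene's corrected counts over a set of cells, scaled to a set total of 1e+06. The gated cells held 137770 corrected counts in the CD137 minus and 230704 in the CD137 plus library, so 1 count was worth 7.26 CPM and 4.33 CPM. The median total per gated cell was 3544 in CD137 minus and 4891 in CD137 plus, against 3971 and 5414 in other CD8 cells. Tnfrsf9, which encodes CD137 (ENSMUSG00000028965.13), had 0 counts in the 36 CD137 minus and in the 47 CD137 plus gated cells, which, taking 3 cells as the limit that a count of 0 allows, leaves shares of cells with a value of up to 8.33% and 6.38%, and limits no share of cells expressing the gene. In other spleen CD8 cells it stood at 2.39 CPM in the CD137 minus and 17.6 CPM in the CD137 plus library, and in the tumour cells at 53.3 CPM and 313 CPM. The gated CD137 plus cells thus had no Tnfrsf9 transcript by which their label could be checked.

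Several defining markers of other cells were absent, while the NK, the gamma delta and, in CD137 minus, the CD4 list summed to more in the gate than in other CD8 cells. Cd4, Foxp3, Cd79a, Ms4a1, Lyz2, C1qa and Mlana were at 0 in both gated sets, although genes seen in under 5 cells of a library are listed at 0 throughout it, with 8 exceptions in the CD137 minus spleen library. The 7 NK genes in the table summed to 1183 CPM in CD137 minus and 767 CPM in CD137 plus gated cells, against 300 CPM and 374 CPM in other CD8 cells, and 1 of the 7 was at 0 in each gated set. Cd7, which T cells also express, gave 501 and 516 CPM of those gated sums. The sums of the B and plasma cell list, 181 CPM and 117 CPM in gated cells against 454 CPM and 393 CPM in other CD8 cells, and of the macrophage, monocyte and neutrophil list, 341 CPM and 251 CPM against 384 CPM and 362 CPM, were lower in the gate. A single CD137 minus gated cell held 17 of the 27 Tyrobp counts and 20 of the 21 Fcer1g counts of its set, with 0 counts of Trac, 1 of Cd3e and 2 of Cd8b1; Tyrobp and Fcer1g encode signalling adaptors typical of NK cells. Trdc, the delta chain of the gamma delta receptor, had a value in 2 CD137 minus cells, 5.56%, and in 1 CD137 plus cell, 2.13%. The 6 gamma delta and innate-like genes in the table summed to 43.6 CPM in CD137 minus and 47.7 CPM in CD137 plus gated cells, against 8.12 CPM and 14.0 CPM in other CD8 cells, with 4 and 3 of the 6 at 0 in the gate. The 6 CD4 and regulatory T cell genes summed to 21.8 CPM, from 3 counts, in CD137 minus and 0 CPM in CD137 plus gated cells, against 6.04 CPM and 2.71 CPM, with 4 and 6 of the 6 at 0 in the gate. The part of these cells in the results was not tested. Of 19 cell barcodes found in more than 1 library, 1 belonged to a gated cell.

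The markers outside the rule were compared first with the other CD8 cells of the same library. S1pr5 (ENSMUSG00000045087.8, chromosome 9, 21242912 to 21248443, minus strand, mm10) stood at 269 CPM (Poisson 95% interval 189 to 370) in CD137 minus gated cells, against 4.79 CPM in other CD8 cells. In the CD137 plus library it stood at 165 CPM (117 to 226) in gated cells, against 11.3 CPM in other CD8 cells. The log2 ratios, taken with 1 CPM added to both levels, were 5.54 in CD137 minus and 3.75 in CD137 plus. Cx3cr1 (ENSMUSG00000052336.7, chromosome 9, 119901616 to 120069879, minus strand) stood at 305 CPM (220 to 412) in CD137 minus gated cells against 2.60 CPM in other cells, and at 295 CPM (229 to 374) in CD137 plus gated cells against 6.33 CPM, log2 ratios of 6.41 and 5.34. Zeb2 (ENSMUSG00000026872.17, chromosome 2, 44983632 to 45117395, minus strand) stood at 123 CPM (71.9 to 198) in CD137 minus gated cells against 2.19 CPM, and at 221 CPM (165 to 291) in CD137 plus gated cells against 5.42 CPM, log2 ratios of 5.29 and 5.11. In both libraries the gated intervals lay above the other cells' levels for all 3 genes.

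Since S1pr5, Cx3cr1 and Zeb2 were higher in the gate, the 250 bases before their RefSeq starts were searched, with Gzma, which the rule itself used, shown beside them. The windows of Gzma (chr13:113100982-113101231), Cx3cr1 (chr9:120068297-120068546) and S1pr5 (chr9:21248444-21248693) lie on the minus strand of GRCm38.p6. The search was for the core of RUNX sites, TGTGGT on either strand, and for the core of T-box sites, GGTGTGA on either strand. Both families of factors act in effector T cells. Of the 5 markers 4 were in the RefSeq promoter table, and Klrg1 was not. The sequences are written 5′ to 3′ on the gene's strand, with RUNX core matches in capitals:
Gzma: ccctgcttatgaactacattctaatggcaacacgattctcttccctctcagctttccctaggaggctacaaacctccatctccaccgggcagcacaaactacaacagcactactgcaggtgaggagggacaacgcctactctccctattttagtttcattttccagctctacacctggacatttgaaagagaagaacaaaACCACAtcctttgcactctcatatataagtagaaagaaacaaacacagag
Cx3cr1: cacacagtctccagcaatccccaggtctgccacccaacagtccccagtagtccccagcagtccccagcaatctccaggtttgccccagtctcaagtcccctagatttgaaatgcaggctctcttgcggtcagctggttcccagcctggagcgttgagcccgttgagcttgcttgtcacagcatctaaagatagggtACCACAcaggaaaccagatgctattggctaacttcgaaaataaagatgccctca
S1pr5: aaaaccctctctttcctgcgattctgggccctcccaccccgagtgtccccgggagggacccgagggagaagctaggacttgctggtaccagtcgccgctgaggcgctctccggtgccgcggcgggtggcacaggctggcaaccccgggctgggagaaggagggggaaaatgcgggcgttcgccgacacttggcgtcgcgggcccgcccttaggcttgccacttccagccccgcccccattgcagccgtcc
The RUNX core stood once in the Gzma window and once in the Cx3cr1 window, in both as its reverse complement ACCACA, which starts 50 bases before the start of Gzma and 54 bases before that of Cx3cr1. S1pr5 and the 4 annotated starts of Zeb2 held no RUNX core in these windows, and none of the windows held the T-box core. The RUNX core is present in 14.0% and the T-box core in 3.33% of the 32851 promoter windows of that length. A match describes the letters only.

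**Figure D2:**
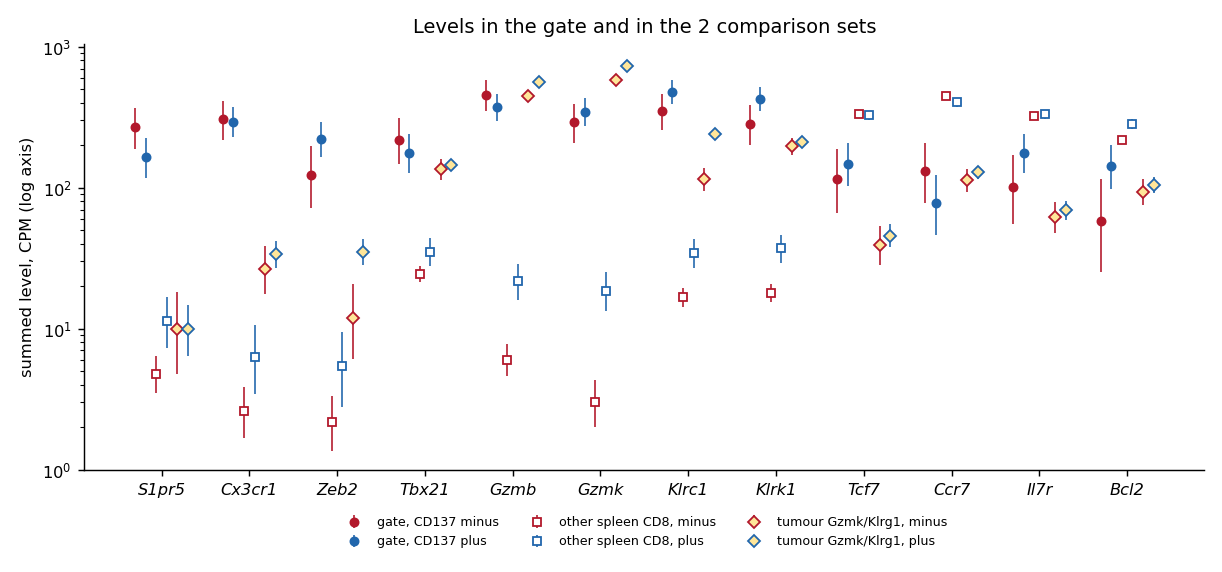
Summed level (CPM, log axis) of 12 genes in gated spleen cells (filled circles), other spleen CD8 cells (open squares) and tumour cells with Gzmk or Klrg1 (diamonds), for CD137 minus (red) and CD137 plus (blue), with exact Poisson 95% intervals as bars. S1pr5, Cx3cr1 and Zeb2 are higher in both gated sets than in all 4 other sets, while Tcf7 and Il7r lie between other spleen cells and tumour cells.

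Across the table, 2428 genes were measured in this comparison, meaning at least 50 CPM and a value in 10% of cells in 1 of the sets and a value in every set. A measured gene under 50 CPM in 1 set entered only through the other set, where it was higher. Counts of calls by list, here and below, partly follow from this filter. A gene was called when its log2 ratio was at least 1 in size in the same direction in both libraries. This called 83 genes higher in the gate, 3.42% of those measured, and 47 lower, 1.94%. The median ratio of all measured genes was 0.18 in CD137 minus and -0.05 in CD137 plus, and with these medians taken off 71 genes were higher and 67 lower. Most other CD8 cells were Ccl5-low, with a median of 0 Ccl5 counts in CD137 minus and 2.5 in CD137 plus. The same ratio was therefore also taken against other CD8 cells with at least 10 Ccl5 counts, 425 in CD137 minus and 138 in CD137 plus, a choice made after seeing the data. That called 40 of 2587 measured genes higher, 1.55%, and 66 lower, 2.55%, 4.10% in all.

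Granule genes were higher in the gate. Of the 10 measured members of the granzyme, perforin and granule list 6 were called higher and 0 lower, Gzma of the rule among them, with list medians of 1.95 in CD137 minus and 1.56 in CD137 plus. Gzmb, which cleaves caspases in target cells, stood at 457 CPM in CD137 minus gated cells against 6.04 CPM in other CD8 cells, and at 373 CPM in CD137 plus gated cells against 21.7 CPM, log2 ratios of 6.02 and 4.04. Gzmk had log2 ratios of 6.18 and 4.15. Prf1, the pore-forming perforin, had ratios of 2.00 and 1.71, and Nkg7, a granule membrane protein, 1.91 and 1.82. Against other cells with at least 10 Ccl5 counts, Gzmb kept ratios of 4.64 and 2.57, and 3 of 11 measured members were called higher. Gzmm was the 1 member called lower there, at 36.3 CPM in CD137 minus gated cells against 244 CPM and 60.7 CPM in CD137 plus gated cells against 296 CPM.

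NK-type lectin receptors followed the same direction, with 5 of 7 measured members called higher and 0 lower. Klrc1 (NKG2A) stood at 348 CPM in CD137 minus gated cells against 16.7 CPM in other CD8 cells, and at 481 CPM in CD137 plus gated cells against 34.3 CPM. Klrk1 (NKG2D) had log2 ratios of 3.91 and 3.50, Klre1 4.34 and 3.30, Klrb1c (NK1.1) 4.49 and 3.89, and Klrd1 (CD94) 1.53 and 1.07. Klrb1c had a value in 19.4% of CD137 minus and 17.0% of CD137 plus gated cells. It is also an NK marker, and the NK gene sums given above were higher in the gate too; their part in these ratios was not tested.

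Among 7 measured effector transcription factors 3 were called higher and 0 lower. Tbx21 stood at 218 CPM in CD137 minus gated cells against 24.4 CPM, and at 178 CPM in CD137 plus gated cells against 35.2 CPM, log2 ratios of 3.11 and 2.30. Id2, an inhibitor of E proteins that favours effector fate, had 2.80 and 2.28, and Zeb2 was the other. Eomes, a T-box factor of memory cells, was not among the measured genes against all other cells. Against cells with at least 10 Ccl5 counts it was lower, at 36.3 CPM in CD137 minus gated cells against 80.5 CPM and at 17.3 CPM in CD137 plus gated cells against 103 CPM. Runx3 had ratios of 1.09 in CD137 minus and 0.47 in CD137 plus and was not called.

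Naive and memory precursor genes ran the other way, with 9 of 15 measured members called lower and 0 higher. Ccr7, a chemokine receptor for lymph node entry, stood at 131 CPM in CD137 minus gated cells against 448 CPM in other CD8 cells, and at 78.0 CPM in CD137 plus gated cells against 403 CPM, log2 ratios of -1.77 and -2.35. Tcf7 (TCF-1), a factor of naive and memory cells, had -1.52 and -1.15, and Id3 -2.25 and -4.02. Il7r, the interleukin-7 receptor, had -1.65 and -0.90 and was called lower only against the other cells with at least 10 Ccl5 counts, at -2.10 and -1.04. Bcl2, a survival gene downstream of that receptor, likewise had -1.88 and -0.99 against all other cells and -2.47 and -1.22 against those with at least 10 Ccl5 counts. Igfbp4, a gene of naive cells, had -2.52 and -2.42 against all others and 0.51 and 0.35 against the Ccl5-high cells. Dapl1 and Actn1, both high in naive cells, had -2.19 and -2.22, and -1.82 and -2.29. Among the 12 measured genes furthest below 0, Srm, which makes spermidine, had -3.34 and -2.94, Rgs10, a regulator of G protein signals, -2.23 and -2.11, and Myc, a factor of cell growth, -1.92 and -3.20.

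Genes of movement and adhesion were partly higher. Of 12 measured chemokine, egress and homing receptors 5 were called higher and 3 lower, among them Ccr7 and Gpr183. Among the higher ones, beside Cx3cr1 and S1pr5, Cxcr6 had log2 ratios of 1.88 in CD137 minus and 1.46 in CD137 plus, S1pr4 1.09 and 1.05, and Ccr2 3.06 and 1.24. S1pr1, the receptor that lets T cells leave lymphoid tissue, was at 174 CPM in CD137 minus gated cells against 150 CPM, and at 173 CPM in CD137 plus gated cells against 162 CPM, and was not called. Of 12 measured adhesion genes 4 were higher and 1 lower; Itgb1 had 2.58 and 2.26, Itga4, its partner in VLA-4, 1.55 and 1.95, and Itgb2 1.67 and 1.55. In the S100, annexin, galectin and cytoskeletal list 12 of 21 measured members were higher and 0 lower, with log2 ratios of 4.95 and 3.20 for Lgals3, a galectin. S100a4 had 4.58 and 2.87 and Ahnak 2.51 and 2.07. Of the 12 measured genes furthest above 0, Kcnj8, a potassium channel subunit, stood on none of the lists. It had 138 CPM in CD137 minus gated cells against 5.94 CPM, and 121 CPM in CD137 plus gated cells against 8.58 CPM.

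**Figure D3:**
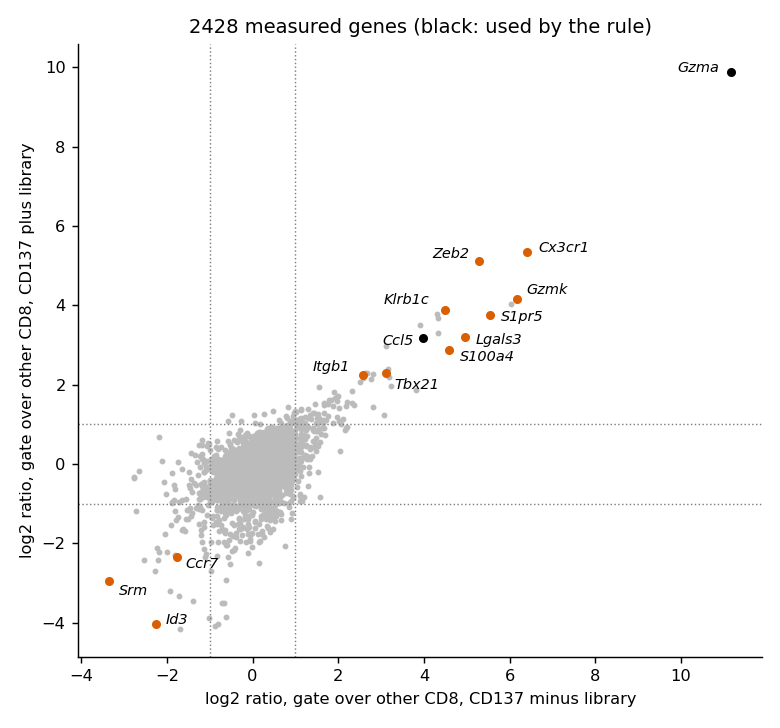
Each point is 1 of 2428 measured genes, plotted by its log2 ratio of gated cells over other spleen CD8 cells in the CD137 minus library (horizontal) and in the CD137 plus library (vertical). Dotted lines mark a ratio of 1 in size. Cx3cr1, Zeb2, Gzmk and Gzmb lie furthest to the upper right after Gzma, which the rule used, and Srm and Id3 to the lower left.

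Cytokines, their receptors and memory-phenotype genes were mixed. Of 7 measured chemokines and cytokines 3 were higher, among them Ifng at 3.82 and 1.88 and Ccl4 at 2.37 and 1.49, besides Ccl5 of the rule. Against the other cells with at least 10 Ccl5 counts 1 of 8 measured members, Ccl5, was higher and 1, Xcl1, lower, with median log2 ratios of 0.28 and 0.06. Ifng had 1.91 and 0.83 there and Ccl4 0.64 and -0.04, and neither was called. Il18rap, a subunit of the interleukin-18 receptor, had 3.16 and 2.39, and was 1 of 2 higher genes among 13 measured cytokine receptors. Ly6c2, a surface protein of memory and effector cells, had 1.64 and 1.03 against all other cells and 0.31 and 0.28 against cells with at least 10 Ccl5 counts. Of 9 measured memory-phenotype genes 4 were higher and 2 lower against all other cells, and 1 of 12 higher and 4 lower against the Ccl5-high ones.

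Several lists held no call in this comparison. None of 18 measured T cell receptor complex genes, 13 MHC class I genes, 10 glycolysis genes, 15 oxidative phosphorylation genes and 8 heat shock genes was called in either direction, beside 5.35% of all measured genes. Of 4 measured cell cycle genes Stmn1 alone was called higher, at 196 CPM in CD137 minus gated cells against 27.0 CPM and at 69.4 CPM in CD137 plus gated cells against 24.8 CPM. A single CD137 minus cell held 14 of its 27 counts there, together with all 6 Top2a and all 3 Mki67 counts of that set.

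The second comparison set the gated spleen cells against tumour cells with Gzmk or Klrg1, within each CD137 fraction. Gzmk and Klrg1 chose those tumour cells, so their levels are no result. Of 2626 measured genes 92 were called higher in the gate, 3.50%, and 219 lower, 8.34%, which makes 11.8% in all. The median ratio of all measured genes was -0.04 in CD137 minus and -0.22 in CD137 plus. Effector granule genes were close: Gzmb stood at 457 CPM in CD137 minus gated cells against 447 CPM in tumour cells, and at 373 CPM in CD137 plus gated cells against 561 CPM. Prf1 stood at 167 CPM in both sets of the CD137 minus fraction, and at 199 CPM in CD137 plus gated cells against 158 CPM. Nkg7 had log2 ratios of 0.17 and 0.02. Of 14 measured granule genes 1, Gzma of the rule, was called higher and 2, the protease inhibitors Serpinb9 and Serpinb6b, lower.

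The markers of circulating effectors were higher in the gate than in the tumour cells. S1pr5 stood at 269 CPM in CD137 minus gated cells against 9.87 CPM, and at 165 CPM in CD137 plus gated cells against 9.95 CPM, log2 ratios of 4.63 and 3.92. Cx3cr1 had 3.47 and 3.09 and Zeb2 3.28 and 2.62. S1pr1 stood at 174 CPM in CD137 minus gated cells against 25.7 CPM and at 173 CPM in CD137 plus gated cells against 28.7 CPM. Klf2, the factor that drives S1pr1, had 1.67 and 1.02. In the chemokine, egress and homing list 7 of 13 measured members were higher and 3, Cxcr6, Gpr183 and P2ry10, lower. Tcf7 had 1.53 and 1.66 and Lef1 2.21 and 1.87, so these genes were lower in the gate than in other spleen cells, or for Lef1 lower without reaching the limit at -0.95 and -0.91, and higher than in the tumour cells. Among 13 measured adhesion genes 5 were higher, among them Itgb7 at 1.69 and 1.72. Further genes among the 12 furthest above 0 were Dtx1, a regulator of Notch signals, at 2.90 and 3.24, and Ripor2, an inhibitor of RhoA, at 2.58 and 2.91. Dtx1 and Ripor2 had 0.12 and 0.36, and 0.67 and 0.47, against other spleen CD8 cells.

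Most measured TCR-induced and early response genes, and several inhibitory and exhaustion genes, were lower in the gate than in the tumour cells. None of the 18 measured T cell receptor complex and proximal kinase genes was called, beside 11.8% of all measured genes. Their median log2 ratios were -0.04 in CD137 minus and -0.36 in CD137 plus. Low TCR-induced levels were not particular to the gate. In CD137 minus and CD137 plus the list of TCR-induced and early response genes summed to 3165 and 3277 CPM in the gate. It summed to 4151 and 4128 CPM in other spleen CD8 cells. In the tumour cells it summed to 12520 and 15314 CPM. Against other spleen CD8 cells 1 of 11 measured TCR-induced genes was called higher and 0 lower. Of 14 measured TCR-induced genes 11 were called lower and 0 higher, with medians of -1.72 in CD137 minus and -2.05 in CD137 plus. Nr4a1, an immediate target of receptor signals, stood at 14.5 CPM in CD137 minus gated cells against 324 CPM, and at 17.3 CPM in CD137 plus gated cells against 515 CPM. Nr4a2 had 1 count in CD137 minus gated cells, 120 times below the 871 CPM of tumour cells (counting interval 21.5 to 4744), and 0 counts in CD137 plus gated cells, at least 86.0 times below the 1119 CPM of tumour cells when set at 3 counts over the gate. Junb, a subunit of AP-1, stood at 827 CPM in CD137 minus gated cells against 3774 CPM, and at 850 CPM in CD137 plus gated cells against 4293 CPM. Pdcd1, which encodes PD-1, had 14.5 CPM in CD137 minus gated cells against 574 CPM, and 3 counts in CD137 plus gated cells against 569 CPM, log2 ratios of -5.21 and -5.35. Lag3 had -4.35 and -3.74, Tigit -2.97 and -3.64, and Tox -2.72 and -2.33, and 5 of 9 measured genes of the inhibitory list were lower and 0 higher. Pdcd1 and Lag3 lay under the level limit in the gate and were measured only through the tumour cells. The count of this list thus partly follows from the filter. All 22 genes of the list summed to 1082 CPM in CD137 minus and 1183 CPM in CD137 plus gated cells. The sums were 4613 and 5642 CPM in the tumour cells, and 190 and 312 CPM in other spleen CD8 cells. The list includes Gzmk, which chose the tumour cells, so their sums partly restate that choice. Gzmk gave 290 CPM in CD137 minus and 347 CPM in CD137 plus of the gated sums. Cd160 gave 174 and 56.3 CPM, and Klrc1, whose levels are given above, is on the list too. The gated sums thus do not measure exhaustion alone. Ctla4 had 0 counts in CD137 minus gated cells, at least 11.9 times below the 260 CPM of tumour cells, and 2 counts in CD137 plus gated cells, 22.2 times below the 193 CPM there (6.12 to 184). Among costimulatory receptors and CD137 adaptors 5 of 10 measured genes were lower and 0 higher, with Icos at -2.65 and -3.68 and Cd28 at -1.30 and -1.34.

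Residency genes were lower in 5 of 6 measured cases, with Rgs1, a regulator of chemokine signals, at 65.3 CPM in CD137 minus gated cells against 1157 CPM and at 78.0 CPM in CD137 plus gated cells against 1390 CPM, and Xcl1 at -3.54 and -3.77. Among chemokines and cytokines 5 of 9 were lower and 2 higher, Ccl5 of the rule and Il16. Ccl4 had -2.42 and -1.67, Ccl3 -2.76 and -2.52, and Ifng -1.30 and -2.37. Glycolysis genes were lower in 7 of 11 measured cases and higher in 0, with Tpi1 at -2.55 and -3.23 and Pgk1 at -2.59 and -1.96, while 0 of 15 oxidative phosphorylation genes were called. Heat shock genes, which also respond to tissue dissociation, were lower in 5 of 9 cases, with Hsp90aa1 at -2.22 and -2.41. The stress-response genes Gadd45b, at -4.07 and -3.96, and Hilpda, at -3.42 and -3.44, were among the 12 furthest below 0. The residency list was low in other spleen CD8 cells too, at 685 CPM in CD137 minus and 657 CPM in CD137 plus. It summed to 900 and 780 CPM in the gate and to 2904 and 3372 CPM in the tumour cells. The part of tissue handling in the ratios of this comparison was not tested.

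**Figure D4:**
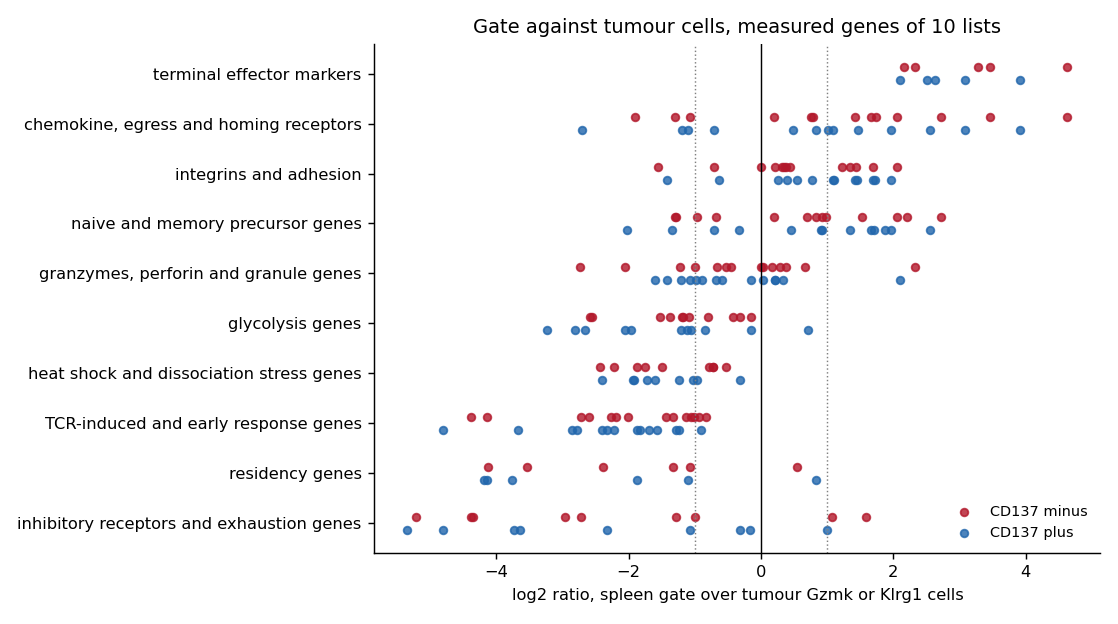
Log2 ratio of spleen gated cells over tumour cells with Gzmk or Klrg1 (horizontal) for the measured genes of 10 lists, with CD137 minus in red above CD137 plus in blue; each point is a gene, and the dotted lines mark 1 in size. The terminal effector markers, which include Gzma and Klrg1 of the rule, all lie right of 1, and 11 of 14 TCR-induced genes were called lower.

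When tumour cells were chosen by the spleen rule instead, 95 CD137 minus and 276 CD137 plus cells, the log2 ratios of S1pr5 were 3.53 and 2.01, those of Cx3cr1 2.89 and 2.56, and those of Zeb2 2.28 and 1.79. Pdcd1 had -3.94 and -4.32 and Nr4a1 -5.01 and -5.39 there. Gzmb lay below the tumour level in both fractions by this choice, at 457 CPM in CD137 minus gated cells against 913 CPM and at 373 CPM in CD137 plus gated cells against 1050 CPM, whereas the tumour cells with a value of Gzmk or Klrg1 stood at 447 CPM in CD137 minus and 561 CPM in CD137 plus.

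The third comparison set CD137 minus against CD137 plus inside the gate, which bears on what effector cells that lack the receptor look like beside their competent neighbours. None of the 5 terminal effector markers passed the limit of 1, while the counting intervals of S1pr5 and Zeb2 lay just beside 0, on opposite sides. The log2 ratio of CD137 minus over CD137 plus was 0.70 for S1pr5 (counting interval 0.01 to 1.40), 0.05 for Cx3cr1 (-0.54 to 0.62) and -0.84 for Zeb2 (-1.73 to -0.03), and for Gzma and Klrg1 of the rule 0.75 and 0.20. S1pr5 had a value in 18 of 36 CD137 minus and 23 of 47 CD137 plus gated cells, Cx3cr1 in 58.3% and 55.3%, and Zeb2 in 36.1% and 48.9%. After thinning to 2900 counts the shares were 44.1% in CD137 minus and 40.9% in CD137 plus for S1pr5, 52.9% in CD137 minus for Cx3cr1 beside 22 of 44 CD137 plus cells, and 38.2% and 40.9% for Zeb2. Tbx21 had a ratio of 0.29, Gzmb 0.29, Gzmk -0.26, Prf1 -0.25, Nkg7 -0.03 and Klf2 -0.02. Other gates moved some of these past the limit or across 0. Zeb2 had -1.14 with at least 2 counts of Gzma or of Klrg1, and Tbx21 1.29 with both genes required. Gzmk had 0.73 and Cx3cr1 -0.64 with both required.

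With 36 and 47 cells, many genes pass the limit on few counts. Of 2916 measured genes 445 were called higher in CD137 minus gated cells, 15.3%, and 165 lower, 5.66%, which makes 20.9% in all. In other spleen CD8 cells 2 of 2537 were higher, 0.0788%, and 13 lower, 0.512%, which makes 0.591%. The 12 genes furthest above 0 had 7 to 27 counts in CD137 minus and 1 to 2 counts in CD137 plus gated cells, and the 12 furthest below 0 had 1 to 2 and 12 to 37. The median ratio was 0.22 in the gate, and with it taken off 321 genes were higher and 245 lower. The SD of the ratio over genes was 0.84 in the gate and 0.28 in other CD8 cells. Of the 445 genes higher in the gate 225 were also measured in other CD8 cells, where 120 had the same sign and 2 were called. Of the 165 lower ones 102 were measured there, with 91 of the same sign and 5 called.

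Several genes had ratios of the same sign in the gate and in other cells of the same libraries. Nptn, a neural adhesion protein, had 1 count in CD137 minus and 37 counts in CD137 plus gated cells, a log2 ratio of -4.29 (-9.81 to -1.90), beside -1.50 in other CD8 cells. Ccl4, a chemokine of activated T cells, stood at 102 CPM in CD137 minus and 321 CPM in CD137 plus gated cells, -1.65 (-2.60 to -0.82), beside -2.53 in other cells. Bhlhe40, a transcription factor of activated T cells, had -1.56 beside -1.33, and Fasl, the death ligand, -1.55 beside -1.51. Eno1, an enzyme of glycolysis, was higher at 305 CPM in CD137 minus and 99.7 CPM in CD137 plus gated cells, 1.60 (0.85 to 2.41), beside 1.29 in other cells. Trbc2, a constant segment of the receptor beta chain, had 1.51 beside 0.94. Bhlhe40 and Fasl were under the measurement limit in other cells, so their ratios there rest on low levels.

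Bcl2 and some other genes had ratios in the gate and in other CD8 cells that lay further apart. Bcl2 stood at 58.1 CPM in CD137 minus and 143 CPM in CD137 plus gated cells, a log2 ratio of -1.29 (-2.63 to -0.16) beside -0.39 in other cells, which lies inside that interval. Cd160, an activating and inhibitory receptor of cytotoxic cells, stood at 174 CPM and 56.3 CPM, 1.61 (0.60 to 2.72) beside -0.09, and had a value in 36.1% of CD137 minus and 14.9% of CD137 plus gated cells. Kmt2a, a histone methyltransferase, had 2 counts in CD137 minus and 30 counts in CD137 plus gated cells, -3.08 (-6.27 to -1.18) beside -0.21. Arl4a, a small GTPase, had 16 counts in CD137 minus and 2 counts in CD137 plus, 3.60 (1.66 to 6.91), against levels of 47.1 CPM and 47.0 CPM in other cells, and -3.25 among cells with both Gzma and Klrg1. Cd160 and Arl4a were under the measurement limit in other cells. The difference between the ratios of gated and other cells was not tested, since each group is 1 library.

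Some differences rested on 1 cell. Tyrobp had the largest ratio above 0, 5.21 (2.90 to 10.9) from 27 counts in CD137 minus and 1 count in CD137 plus gated cells, and 3.82 from 10 counts without the cell described above. Stmn1 had 1.49 and Hmgb2, a chromatin protein of dividing cells, 1.17. Without the CD137 minus cell with 14 Stmn1 and 38 Hmgb2 counts the ratios were 0.49 and 0.43. Lgals3 had 1.09, with 27 of its 55 counts in CD137 minus gated cells from 1 cell. The cell cycle genes Mki67 and Top2a were under the measurement limit.

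By list, the calls in the gate stand beside the 15.3% of all measured genes called higher and the 5.66% called lower. None of 11 measured TCR-induced, 8 heat shock, 13 adhesion, 14 MHC class I and 9 memory-phenotype genes was called in either direction. Of 14 granule genes Ctsc was higher at 1.31 and Fasl lower, and of 12 naive and memory precursor genes Bcl2 alone was lower. Among survival and apoptosis genes 2 of 7, Bcl2 and Fasl, were lower, and none was higher. Of 5 measured cell cycle genes Stmn1 and Hmgb2 were higher, and of 9 NK-type lectin receptors and adaptors Tyrobp and Cd160. The counts of Stmn1, Hmgb2 and Tyrobp that came from 1 cell are given above. Cd160 was also the 1 higher gene of 3 measured inhibitory receptors and exhaustion genes. In other spleen CD8 cells, Gzmb had a ratio of -1.69, S1pr5 -1.09, Cx3cr1 -1.02 and Zeb2 -1.01. These genes were under the measurement limit in other cells, so their ratios there rest on low levels. Inside the gate the same genes had the ratios of 0.29, 0.70, 0.05 and -0.84 given above. Other CD8 cells with at least 10 Ccl5 counts made up 425 of 2408 cells in CD137 minus and 138 of 422 in CD137 plus, and their part in those ratios was not tested.

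**Figure D5:**
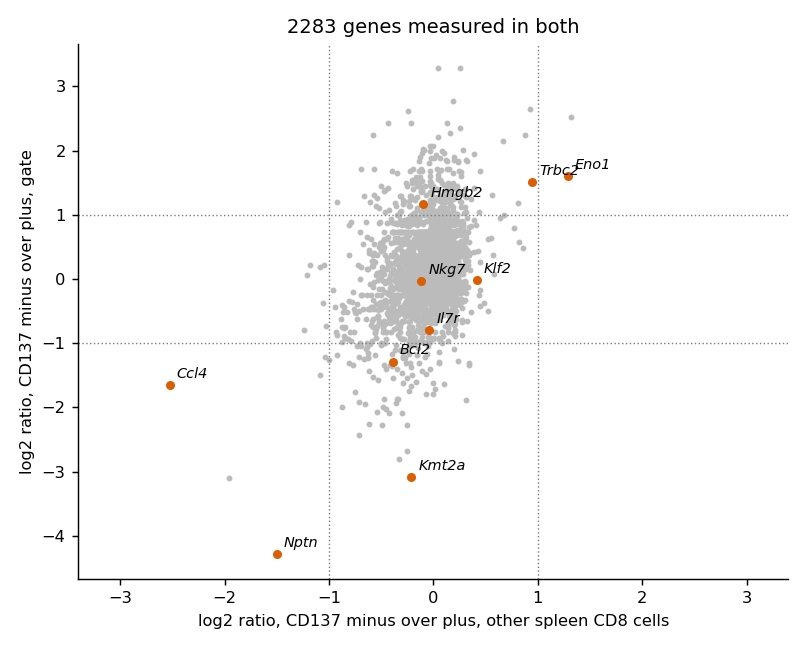
Each point is 1 of 2283 genes measured in the gate and in other spleen CD8 cells, plotted by its log2 ratio of CD137 minus over CD137 plus in other cells (horizontal) and in the gate (vertical). Dotted lines mark 1 in size. Ratios spread further in the gate than in other cells, with SDs of 0.84 over all 2916 and 0.28 over all 2537 genes measured in each, and Nptn, Ccl4 and Eno1 lie beyond 1 in size on both axes.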

How the data were processed

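Single-cell 5′ transcriptomes of spleen and tumour CD8 T cells were measured in 4 libraries. The submitters' processing notes name Cell Ranger 3.0.2, Seurat 3.0 and mm10 without the role of each. The table the authors deposited holds natural log values of 1 plus a whole number, within a relative tolerance of 1e-12, and the exponential returned those numbers. Totals per cell span only 3110 to 4858 in CD137 minus and 4096 to 5872 in CD137 plus spleen CD8 cells. The numbers are for this reason taken as counts corrected for depth, to which count tests were not applied.

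Groups follow the CD137 status in the labels. Corrected counts were summed over each set of cells and scaled to CPM, and log2 ratios used a pseudocount of 1 CPM. With 1 library per group no test was run. Shares have exact Clopper-Pearson and levels exact Poisson 95% intervals, and a count of 0 was set at 3 counts for bounds. Named genes are the 12 measured genes furthest above and below 0 in each comparison, ranked by the smaller of 2 libraries' ratios where both are set side by side, and measured members of gene lists with the largest ratios. Receptor segments, mitochondrial, ribosomal protein, haemoglobin, sex-linked and unnamed genes were left out of that ranking. Members, markers and lists were chosen with earlier results of these data known. No doublet caller was run, and doublets may be among the cells. The calculation was tested on simulated data. Alternatives changed the pseudocount, level filter, weighting of cells, centring, size limit, gate, comparison cells and depth. The gate with at least 10 Ccl5 counts, the other cells with at least 10 Ccl5 counts and the gates without 1 cell were added after seeing the data. The work used Python 3.11.15 with numpy 2.4.6, matplotlib 3.10.9, pandas 2.3.3 and scipy 1.17.1. Gene positions are GENCODE's on mm10, and promoters RefSeq's on GRCm38.p6. A few members of the lists are not reported here by name.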

Additional observations from a re-analysis of the deposited data

Results flagged for a closer look

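The ratio of spleen gated cells to tumour cells pointed opposite ways in the CD137 minus and CD137 plus fractions for Supt5, a transcription elongation factor, and for Arl4a, a small GTPase. Supt5 had a log2 ratio of -1.86 in CD137 minus and 1.04 in CD137 plus. Arl4a had 1.25 in CD137 minus and -2.61 in CD137 plus. Supt5 had 2 counts in CD137 minus and 19 counts in CD137 plus gated cells, and Arl4a had 16 and 2. The difference between the fractions was not tested.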

How the results depend on the processing

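Beside the 130 genes called in the gate against other spleen CD8 cells, the 311 against tumour cells and the 610 for CD137 minus against plus inside the gate, a filter of 20 CPM and 5% of cells called 310, 542 and 1719, no filter 470, 744 and 2044, and a size limit of 0.5 called 440, 740 and 1442. With both Gzma and Klrg1 required, the gate held 0.609% of CD137 minus and 5.07% of CD137 plus cells and 1157 genes were called between them. With Klrg1 without Gzma in the rule it held 0.812% and 5.71%, and 994 were called. All other alternatives kept these counts within 1.5 times, at 104 to 193, 261 to 321 and 476 to 834, and the gate shares at 1.10% to 1.38% in CD137 minus and 8.67% to 9.51% in CD137 plus. Similar counts did not mean the same genes. After thinning, 100 of the 130, 220 of the 311 and 408 of the 610 genes were called again in the same direction. With both Gzma and Klrg1 required, 93, 186 and 345 were. Against other cells with at least 10 Ccl5 counts 72 of the 130 were. Among named genes past the limit, 3 changed sign: with both Gzma and Klrg1 required, Arl4a had -3.25 and Scnm1 -4.17 for CD137 minus over plus, and Igfbp4 had 0.35 in the gate against other cells with at least 10 Ccl5 counts. Gzmk and Cx3cr1, under the limit at -0.26 and 0.05 for CD137 minus over plus, had 0.73 and -0.64 with both required and 0.63 and -0.21 with Klrg1 without Gzma in the rule, and Gzmk 0.19 with at least 2 counts of Gzma or of Klrg1. Zeb2 and Tbx21 passed the limit in 1 gate each, Zeb2 with that rule at -1.14 and Tbx21 with both required at 1.29. No paired analysis was possible because each group was 1 library, numbered 1 in every group, and no cell is tied to a mouse. With 36 and 47 gated cells, 1 count is worth 7.26 CPM in CD137 minus and 4.33 CPM in CD137 plus gated cells. The cause of these shifts was not tested, beyond the number of genes or cells each setting admits.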
